A study of Mus musculus with 24 samples.

Results

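The difference between Alk5 mutants and controls that was alike in 4 regions of the embryonic jaw was read from all 24 arrays of the series. For each gene it is the mean of the 4 region-wise differences, mutant minus control, on the log2 scale, where 1 unit is a doubling. A gene was said to change evenly when it passed the test of that mean, its 4 regional changes had one sign, and the smallest was at least 0.5 of the largest in size. By this rule 537 of 13942 genes tested changed evenly.

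The mutants came from a mating of Wnt1cre;Alk5fl/+ with Alk5fl/fl mice, on the C57B6 background that the labels name, and were collected at embryonic day 14.5. They were picked out by their cleft palate and calvarial defect, and the labels describe no genotyping assay. Their littermates served as controls. The alleles of those littermates are not stated, and every embryo of this mating inherits at least 1 floxed Alk5 allele. Each genotype had 12 arrays, 3 each of the distal mandible, proximal mandible, distal maxilla and proximal maxilla, and the labels call the sampled compartment bone. The labels do not say whether an array holds 1 embryo or several, or whether the arrays with one replicate number share embryos.

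Alk5, gene symbol Tgfbr1, is the type I receptor through which TGF-beta ligands phosphorylate SMAD2 and SMAD3. Ligands are secreted in a latent form that latent TGF-beta binding proteins tether to the extracellular matrix, and the SMADs then induce matrix and matricellular genes together with inhibitors of the pathway. The Wnt1-Cre driver recombines in neural crest cells, which form the cartilage, bone and connective tissue of the jaws. Skeletal muscle, the endothelium of blood vessels, blood cells and surface epithelium of the region have other origins and keep the receptor.

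Tgfbr1 itself had a mean log2 signal of 12.41 ± 0.12 in mutants and 12.15 ± 0.08 in controls (SD, n = 3 averages over the regions). It was higher in mutants by 0.26 ± 0.068 (SE, limma adjusted p = 0.0481), a call that was lost in 5 of the 6 leave-outs, fits without one genotype and replicate number (adjusted p 0.0694 to 0.154). It was also lost after quantile normalization and without the filter (0.0543 each), without the mean-variance trend (0.0676) and with the level of Xist as a covariate (0.259). Where its probe sets lie relative to the deleted part is not given in the sources used here, and cells outside the Wnt1-Cre lineage keep the gene, so these values check nothing about the genotype labels.

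Array medians lay between 7.03 and 7.12. A signal below the filter level of 6.33 to 6.47, the 40th percentile of an array, was read as background, and a change against a group mean under it is a lower limit in size. Over all probe sets 6 arrays correlated better with another group than with their own: mutant distal maxilla 3, all 3 mutant proximal maxilla arrays, and control distal maxilla 1 and 2. The maxilla arrays of Mutant 3 were closest to the mutant mandible (r = 0.9903 and 0.9913, against 0.9898 and 0.9882 with their own groups). Xist, the RNA of the inactive X chromosome, averaged 11.65, 13.22 and 12.25 in Mutant 1, 2 and 3 and 13.61, 6.57 and 6.83 in Control 1, 2 and 3. The Y-linked Kdm5d averaged 9.83, 4.0 and 9.14 in Mutant 1, 2 and 3 and 4.05, 9.54 and 9.59 in Control 1, 2 and 3. Mutant 1 and 3 thus had high levels of both, and whether they hold embryos of both sexes was not tested. Xist was thus high in Mutant 1, 2 and 3 but low in Control 2 and 3, so sex-linked levels differed between the genotypes and within them. Sex and genotype are partly confounded here and cannot be fully told apart. The part of sex in the changes was not tested beyond a fit with the Xist level as a covariate. The 3' minus 5' difference of the Pcx control probe sets, a sign of RNA quality, averaged 1.52 in mutants and 1.41 in controls. Its part in the changes was not tested.

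The mean effect was tested on averages over the 4 regions, 3 mutant against 3 control, since the arrays of one genotype and number may share embryos. In limma 2114 of 13942 genes passed at an adjusted p under 0.05 (15.2%), 1099 higher in mutants (7.88%) and 1015 lower (7.28%). This fit left the samples unpaired. With the replicate number as a block, which pairs them, 3324 passed, 1938 higher and 1386 lower. The labels do not state such a pairing. With genotype and number as a random block on the single arrays 3788 passed, and 3715 without the 2 maxilla arrays of Mutant 3. With the Xist level as a covariate the count was 149. Leaving out Mutant 2 or Control 1, 2 or 3 gave 1252, 810, 770 and 691. Of the 2114 genes, 1779 had one sign in all 4 regions, 981 higher and 798 lower, which is to be read beside the 43.1% of all genes tested with one sign, called or not. In bulk tissue, fewer cells of a type and less RNA per cell cannot be told apart.

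The 537 genes that changed evenly made up 3.85% of those tested, 444 higher in mutants (3.18%) and 93 lower (0.667%). They were 40.4% of all genes called higher and 9.16% of all genes called lower. After quantile normalization of the arrays the split was 266 higher and 128 lower (67.5% higher, against 82.7% before it), so the preponderance of rises depends in part on the scaling. The median change of the 444 was 0.28, of the 93 it was -0.47, and of all genes tested 0.022. Large changes ran the other way: 145 called genes moved by at least 1 log2 unit, 26 up and 119 down, and of the even ones 3 rose and 15 fell that far. With the replicate block 837 genes changed evenly, and with the Xist covariate 37. The random block on single arrays gave 970, and 948 without the 2 maxilla arrays of Mutant 3. Leaving out Mutant 2 or Control 1, 2 or 3 gave 259, 220, 179 and 131, and without Control 3 the fallers outnumbered the risers, 75 to 56.

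**Figure D1:**
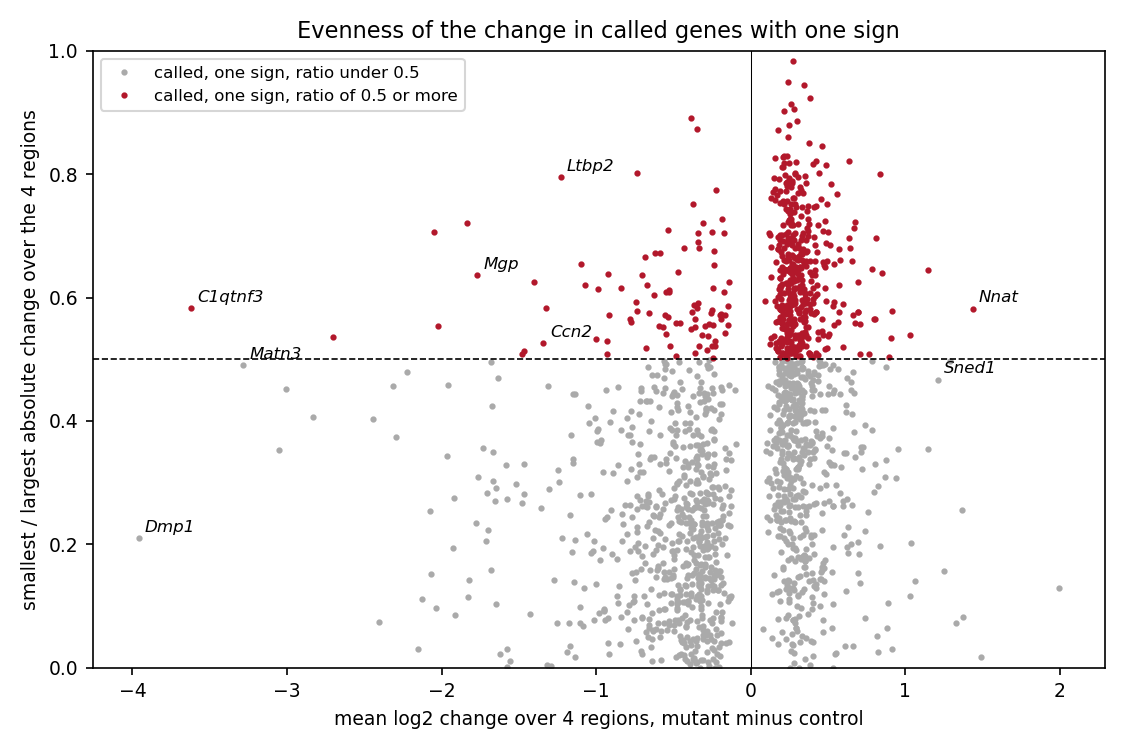
Each point is a called gene with one sign in all 4 regions; the horizontal axis gives its mean log2 change, mutant minus control, and the vertical axis its smallest over its largest absolute regional change, with a dashed line at 0.5. The 537 red points above the line are mostly small rises, and the falls that reach below -3 include C1qtnf3 above the line and Matn3 and Dmp1 under it.

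Few even changes were so large that each region alone could show them. Limma called 101 of the 537 in all 4 regions, 129 in 3, 138 in 2, 105 in 1 and 64 in no region. Among all genes 118 were called in each region with one sign (0.846%), 86 higher (0.617%) and 32 lower (0.230%), and with the replicate block 306. The regions differed in how many genes passed at all: for the mandible 2231 at its distal end (16.0%) and 2777 at its proximal end (19.9%), for the maxilla 413 at its distal end (2.96%) and 1470 at its proximal end (10.5%). With the replicate block the distal maxilla had 1087 and the proximal maxilla 2397. The smallest change of an even gene lay in the distal maxilla for 222 of them and in the proximal mandible for 57, and the largest lay in the proximal mandible for 211 and in the distal maxilla for 68. In 336 of the 537, 284 higher and 52 lower, the 3 mutant arrays lay wholly on one side of the 3 control arrays in every region, as in 4.49% of all genes tested.

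C1qtnf3, a secreted C1q and TNF related protein made by developing cartilage, had the largest fall of the even genes. In the distal mandible it stood at 5.53, 6.05 and 6.26 in mutants against 10.93, 10.66 and 11.08 in controls, and in the proximal mandible at 6.83, 7.17 and 9.3 in mutants against 11.11, 11.33 and 10.94 in controls. In the distal maxilla the levels were 5.49, 5.75 and 6.04 in mutants against 9.34, 9.86 and 7.98 in controls, and in the proximal maxilla 7.03, 7.11 and 7.4 in mutants against 9.77, 10.26 and 10.15 in controls. The genotypes did not overlap in any region, although mutant proximal mandible 3 was far above its group and control distal maxilla 3 far below. The mean change was -3.62 ± 0.26 (SE, limma adjusted p = 0.00158), with -4.94, -3.36, -3.3 and -2.88 in the 4 regions in the order given. Because the mutants of both distal parts lay under the filter level, the changes there are lower limits, and the ratio of 0.583 rests on them.

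Matn3 encodes matrilin-3, an adaptor between collagen fibrils and proteoglycans of cartilage. Its levels were 7.79, 6.96 and 6.85 in mutant distal mandibles against 11.52, 11.14 and 11.3 in control ones, and 8.21, 8.28 and 10.03 in mutant proximal mandibles against 10.93, 11.1 and 10.55 in control ones. The maxilla gave 7.96, 7.79 and 6.75 in mutants against 11.29, 11.73 and 8.78 in controls at the distal end. At the proximal end the mutants had 8.36, 8.74 and 6.36 and the controls 11.56, 11.76 and 11.81. The same 2 arrays that were off for C1qtnf3 narrowed the gap here, yet no mutant array reached a control array of its region. The mean change was -3.28 ± 0.24 (limma adjusted p = 0.00158). Its smallest regional change, -2.02 in the proximal mandible, was 0.49 of its largest, -4.12 in the distal mandible, so Matn3 fell in every region but just missed the bound for an even change.

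Nnat, the imprinted gene of neuronatin, a small membrane protein of the endoplasmic reticulum, had the largest rise of the even genes. It had 10.6, 10.82 and 10.45 in mutant distal mandibles against 8.79, 9.18 and 8.87 in control ones, and 10.87, 10.92 and 11.3 in mutant proximal mandibles against 8.96, 9.27 and 9.27 in control ones. Distal maxillae had 10.05, 10.46 and 9.59 in mutants against 8.72, 9.26 and 8.76 in controls, and proximal maxillae 11.13, 11.16 and 10.81 in mutants against 10.37, 10.18 and 9.3 in controls. Mutants were above controls in every region, with the narrowest gap in the maxilla. The mean change of 1.43 ± 0.12 was a 2.7-fold rise (limma adjusted p = 0.00231, ratio 0.582). Nnat was the only called riser of the 16 imprinted genes tested, beside 7.88% of all genes tested. The median change of the 16 was -0.05. Mest and Plagl1 fell, by 0.14 ± 0.033 and 0.25 ± 0.066 (limma adjusted p = 0.0376 and 0.049), beside 7.28% of all genes tested. Of the 6 leave-outs only that of Mutant 3 kept either call.

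Sned1, an extracellular matrix protein with sushi, nidogen and EGF-like domains, stood at 9.16, 9.16 and 9.48 in mutant distal mandibles against 8.24, 8.76 and 8.58 in control ones. The proximal mandible had 9.91, 9.44 and 10.55 in mutants against 8.35, 8.22 and 8.57 in controls. In the maxilla the distal arrays were at 10.48, 10.33 and 10.1 in mutants against 9.17, 9.06 and 8.75 in controls, and the proximal ones at 10.88, 11.04 and 10.67 in mutants against 9.62, 9.81 and 9.56 in controls. All regions were apart. The mean rise of 1.21 ± 0.069 (2.31-fold, limma adjusted p = 0.00154) ran unevenly, 0.74 in the distal and 1.59 in the proximal mandible, with a ratio of 0.467 that placed it outside the even genes. All 4 of these genes were called in each region, and in the mean whichever genotype and number was left out.

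**Figure D2:**
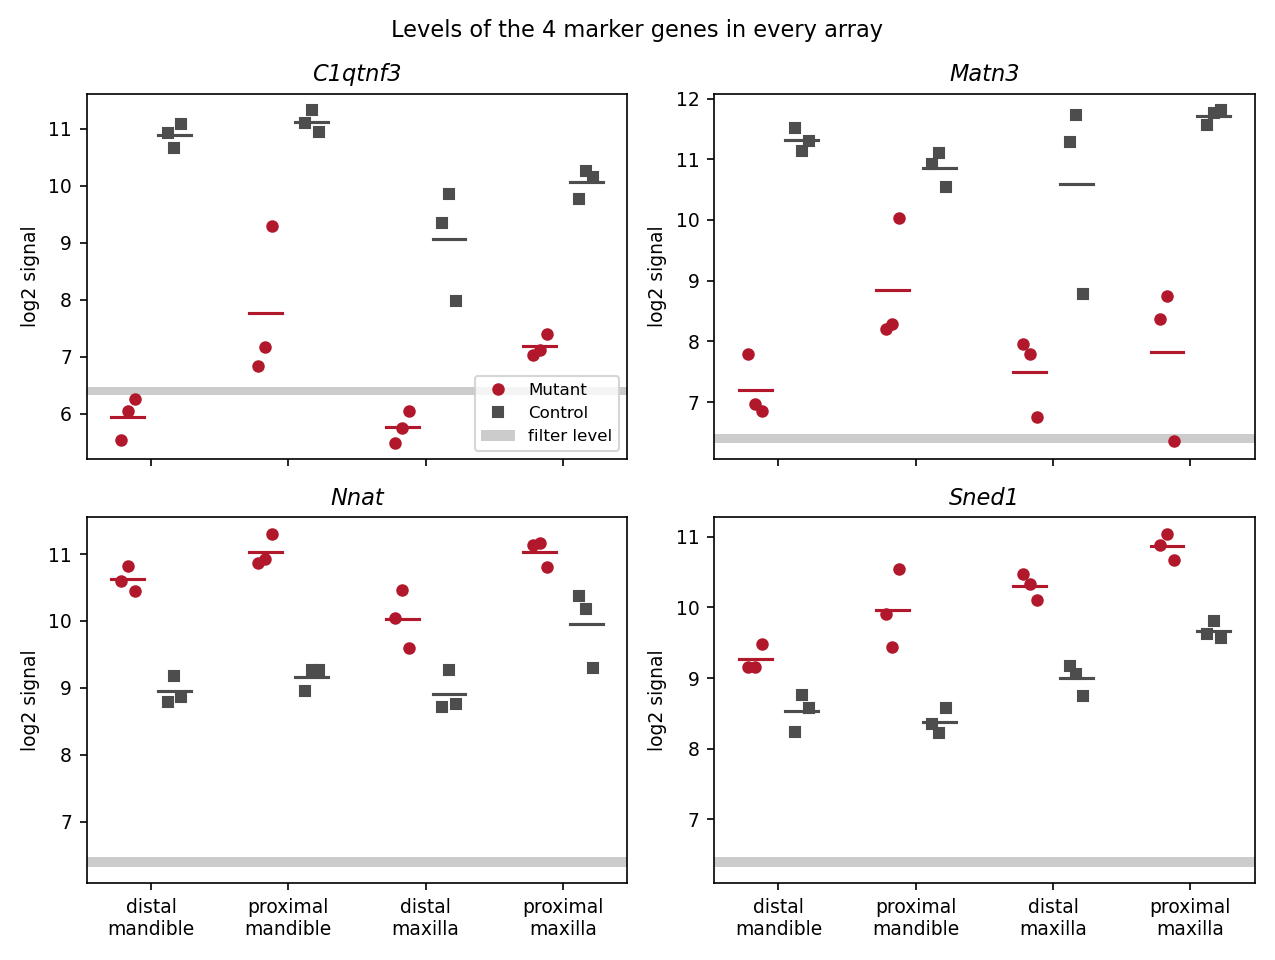
Log2 signal of C1qtnf3, Matn3, Nnat and Sned1 in every array, by region; circles are mutant arrays, squares control arrays, bars the mean of 3, and the grey band the filter level. Mutant and control arrays separate in each region for all 4 genes, with mutant proximal mandible 3 and control distal maxilla 3 nearest to the other genotype for C1qtnf3 and Matn3.

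SMAD proteins bind the half-site CAGAC, so the 250 bases before the start site were searched for it on both strands. The promoters of an even faller of the cartilage, an even faller of the pathway itself and the largest even riser are shown, chosen after their matches were seen, from RefSeq on GRCm38.p6, 5′ to 3′ on the gene's strand. C1qtnf3 lies at chr15:10952082-10952331 on the plus strand, Ltbp2, which is described next, at chr12:84876492-84876741 on the minus strand, and Nnat at chr2:157559828-157560077 on the plus strand. Capitals mark CAGAC or its reverse complement GTCTG, and in C1qtnf3 also GGAATG, the TEAD motif.
C1qtnf3: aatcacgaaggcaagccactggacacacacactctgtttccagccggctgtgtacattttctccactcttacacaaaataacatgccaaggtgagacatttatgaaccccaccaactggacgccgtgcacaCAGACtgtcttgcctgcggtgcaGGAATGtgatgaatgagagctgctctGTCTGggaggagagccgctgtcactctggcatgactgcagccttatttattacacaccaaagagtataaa
Ltbp2: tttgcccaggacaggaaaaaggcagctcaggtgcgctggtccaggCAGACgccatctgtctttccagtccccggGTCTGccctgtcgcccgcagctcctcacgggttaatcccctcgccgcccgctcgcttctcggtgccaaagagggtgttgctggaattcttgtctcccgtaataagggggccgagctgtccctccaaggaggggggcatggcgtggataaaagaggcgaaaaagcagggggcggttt
Nnat: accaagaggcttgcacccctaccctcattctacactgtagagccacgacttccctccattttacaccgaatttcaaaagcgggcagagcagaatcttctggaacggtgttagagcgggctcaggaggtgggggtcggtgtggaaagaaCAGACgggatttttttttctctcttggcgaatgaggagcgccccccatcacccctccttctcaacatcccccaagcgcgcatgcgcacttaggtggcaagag

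C1qtnf3 and Ltbp2 hold 2 copies each and Nnat 1. Of genes not shown, Matn3 holds 2, while Sned1 and the even faller Ccn1 hold 0. CAGAC was in 39 of the 70 matched promoters of even fallers (55.7%) and in 39.0% of the 362 of even risers, beside 41.0% of the 11178 of all genes tested and 42.2% of all 27025 in the table. GGAATG was in 15.7%, 11.3%, 10.7% and 12.6% of the same sets. The paired half-sites GTCTAGAC were in 0.0%, 0.0%, 0.188% and 0.174% of them. TGANTCA, the AP-1 motif, was in 5.71%, 1.38%, 4.24% and 6.85%. These shares are descriptions with no test, and a match shows letters, not binding.

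Among the ligands, receptors and binding proteins of TGF-beta, even changes were confined to the latent TGF-beta binding proteins Ltbp2 and Ltbp3. These were 2 of 11 genes, both lower in mutants, beside 0.667% of all genes tested that fell evenly. Ltbp2, a microfibril protein, averaged 6.24, 6.47 and 6.42 in Mutant 1, 2 and 3 against 7.64, 7.44 and 7.74 in Control 1, 2 and 3. Its 12 mutant arrays lay at or under 7.06 and its 12 control arrays at or above 7.11, so the genotypes were apart even across regions. The change of -1.23 ± 0.1 (limma adjusted p = 0.00193) was among the most even of the large ones, with -1.34, -1.34, -1.07 and -1.16 by region (ratio 0.795). As 7 mutant arrays were under the filter level, its size is a lower limit in part of the regions. Ltbp3, which carries latent TGF-beta to the matrix, averaged 11.29, 11.39 and 11.38 in mutants against 11.78, 11.94 and 11.78 in controls, and fell by 0.48 ± 0.058 (limma adjusted p = 0.00565).

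The ligands moved unevenly. Tgfb2 rose by 0.72 ± 0.07 (limma adjusted p = 0.00346), between 0.35 in the distal and 0.99 in the proximal mandible. Tgfb3 fell by 0.53 ± 0.1 (limma adjusted p = 0.0197), with -1.16 and -0.75 in the mandible but 0.08 and -0.29 in the maxilla. Its adjusted p was between 0.0507 and 0.0691 in the 4 leave-outs that ended the call, those of Mutant 1, Mutant 2, Control 1 and Control 2. Tgfb1 had a change of -0.51 ± 0.18 and Tgfbr2, the type II receptor that pairs with Alk5, one of -0.26 ± 0.071, with limma adjusted p = 0.0967 and 0.0508. With the replicate block both passed, at 0.036 and 0.0437. The coreceptor Tgfbr3 rose by 0.63 ± 0.15 (limma adjusted p = 0.0349).

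Downstream, 4 of the 15 SMAD transducers and corepressors tested rose and 2 fell, beside 7.88% and 7.28% of all genes tested. Their median change was 0.12. Of these, Tgif2, a corepressor of SMAD-driven transcription, rose evenly, averaging 10.75, 10.84 and 10.82 in mutants against 10.47, 10.46 and 10.41 in controls (0.36 ± 0.046, limma adjusted p = 0.00668). Pmepa1, a membrane protein that the pathway induces and that dampens it, fell evenly, with averages of 8.47, 8.43 and 8.55 in mutants against 9.1, 9.12 and 9.09 in controls. Its change was -0.62 ± 0.054 (1.54-fold lower in mutants, limma adjusted p = 0.00243), and all 12 mutant arrays lay under all 12 control arrays. Smad3, a transducer of Alk5, rose by 0.26 ± 0.046 and Tgif1 by 0.53 ± 0.07, while the corepressor Skil fell by 0.37 ± 0.059 (limma adjusted p = 0.015, 0.00704 and 0.011). The changes of these 3 genes had ratios of 0.308, 0.49 and 0.225.

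Of 20 genes known to be induced by TGF-beta in mesenchymal cells, 10 fell and 1 rose, beside 7.28% and 7.88% of all genes tested. The falls numbered 7 to 13 in the leave-outs and 4 with the Xist covariate. The median change was -0.35 beside 0.022 over all genes. Evenly lower were Ccn1, Ccn2, Ltbp2 and Pmepa1. Ccn2, the connective tissue growth factor, averaged 10.65, 10.79 and 10.37 in mutants against 12.07, 12.06 and 11.72 in controls, with no mutant array as high as any control array of any region. Its change of -1.34 ± 0.13 (2.54-fold lower in mutants, limma adjusted p = 0.00363) was -0.98 and -0.94 in the mandible and -1.67 and -1.79 in the maxilla. Ccn1, the related matricellular protein, had 8.59, 8.74 and 8.5 in mutants against 9.64, 9.72 and 9.44 in controls, a change of -0.99 ± 0.094 (limma adjusted p = 0.00341). Fibronectin, Fn1, fell by 0.58 ± 0.065, with changes between -0.8 in the distal mandible and -0.26 in the distal maxilla, and Postn, Col1a1, Col1a2, Skil and Scx also fell unevenly.

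**Figure D3:**
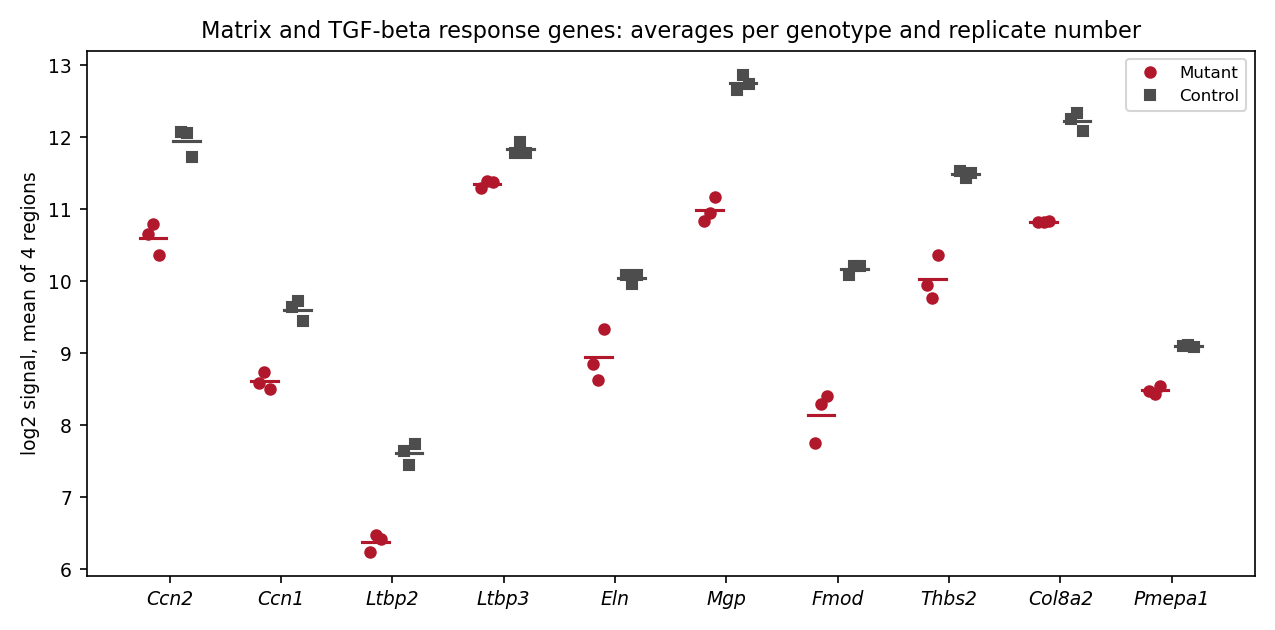
Log2 signal averaged over the 4 regions for each genotype and replicate number, for genes of the matrix and of the TGF-beta response that changed evenly; circles are the 3 mutant averages, squares the 3 control averages, bars their means. In each gene the 3 mutant averages lie below the 3 control averages; signals of different genes are not on a common scale.

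The other fallers named here are those of the largest change among the even genes whose mutant and control arrays lay apart in every region. Fmod, a small proteoglycan that binds collagen fibrils, averaged 7.75, 8.29 and 8.4 in mutants against 10.08, 10.21 and 10.21 in controls, 4.06-fold lower in mutants (-2.02 ± 0.16, limma adjusted p = 0.00182). Mgp, the matrix Gla protein that restrains calcification, averaged 10.84, 10.95 and 11.17 in mutants against 12.66, 12.87 and 12.74 in controls, 3.42-fold lower in mutants (-1.77 ± 0.093, 0.00108). Col8a2, a short-chain collagen, averaged 10.82, 10.82 and 10.83 in mutants against 12.26, 12.34 and 12.08 in controls (-1.4 ± 0.067, 0.000771). For all 3 genes every mutant array of any region lay below every control array.

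Chad, the cartilage protein chondroadherin, fell by 1.84 ± 0.15, with 6 of its 12 mutant arrays under the filter level. Thbs2, a matricellular thrombospondin, fell by 1.46 ± 0.14 and elastin, Eln, by 1.1 ± 0.17. Ecrg4, the precursor of the secreted augurin, fell by 2.05 ± 0.33, and its averages of 7.46, 7.2 and 8.58 in mutants spread more than those of 9.88, 9.63 and 9.88 in controls. Thsd4, a protein of fibrillin microfibrils, fell by 0.84 ± 0.18, but its limma adjusted p was between 0.0568 and 0.0827 without Control 1, 2 or 3. The list closed with the cytokine Il33 (-1.33 ± 0.18, 7 mutant and 2 control arrays under the filter level), the sulfatase Arsi (-0.93 ± 0.12) and the adenylyl cyclase Adcy2 (-0.74 ± 0.1). Limma adjusted p-values of these 8 genes ran from 0.00182 for Chad to 0.0264 for Thsd4.

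**Figure D4:**
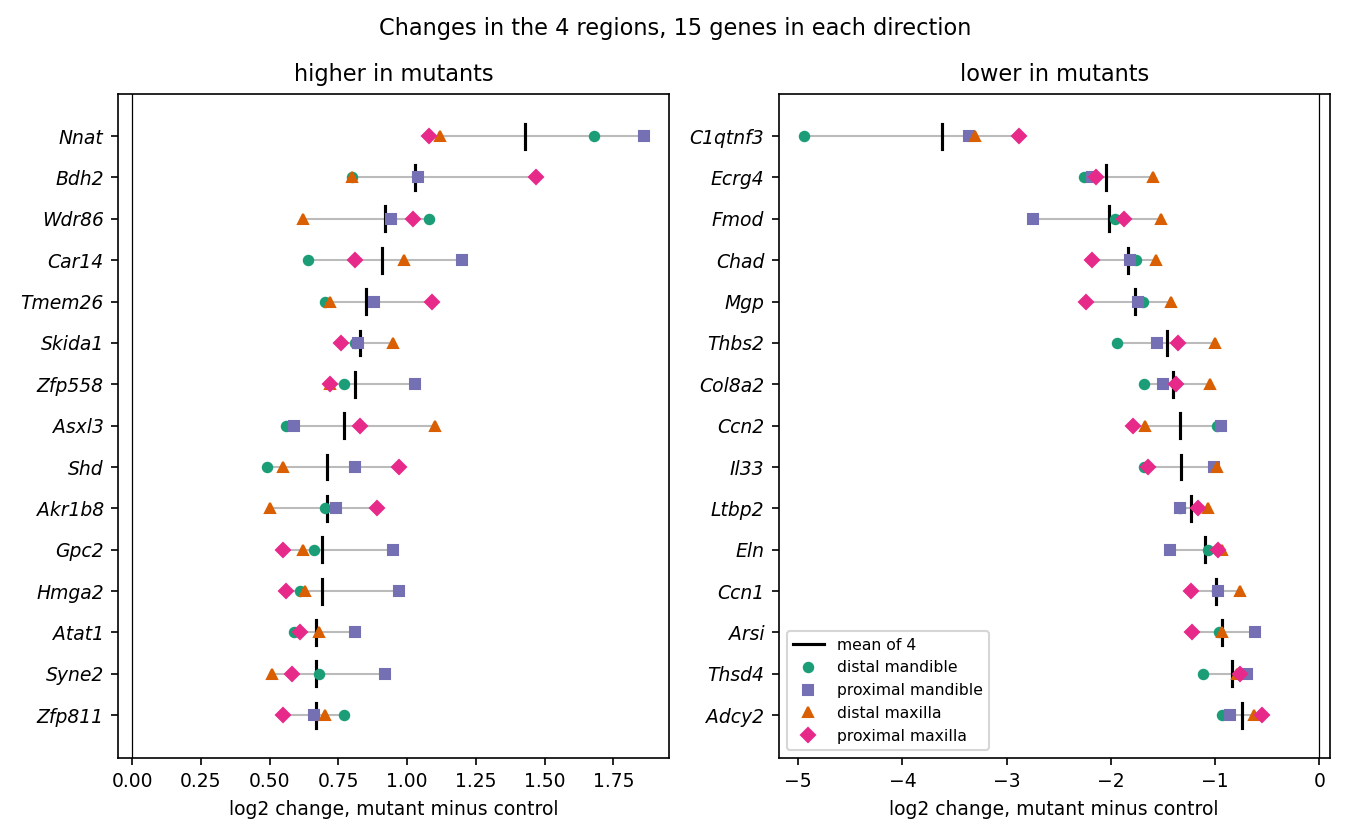
Log2 change, mutant minus control, in each of the 4 regions and in their mean (black bar) for the 15 genes with the largest change in each direction among the even genes whose mutant and control arrays lay apart in every region. Rises, on the left, range up to 1.43 in the mean, and falls, on the right, down to -3.62; the 2 panels have different scales.

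Among the even risers whose arrays lay apart in every region, Nnat was followed by Bdh2, a dehydrogenase of ketone and siderophore metabolism, with averages of 9.42, 9.63 and 9.61 in mutants against 8.46, 8.67 and 8.45 in controls (1.03 ± 0.087, 2.04-fold, limma adjusted p = 0.00222). Wdr86, a WD repeat protein, averaged 10.11, 10.27 and 10.15 in mutants against 9.35, 9.19 and 9.24 in controls (0.92 ± 0.067, 0.00158). The membrane carbonic anhydrase Car14 rose by 0.91 ± 0.15 and Tmem26, a transmembrane protein, by 0.85 ± 0.073.

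Hmga2, an architectural chromatin protein of embryonic mesenchyme, rose by 0.69 ± 0.1, averaging 11.98, 11.81 and 11.78 in mutants against 11.32, 11.2 and 10.96 in controls. Asxl3, of the Polycomb-associated Asx family, rose by 0.77 ± 0.1, and Skida1, a protein with a SKI/DACH domain, by 0.83 ± 0.1 with the most even rise of the group (ratio 0.801). The nuclear envelope spectrin Syne2 and Atat1, which acetylates alpha-tubulin, rose by 0.67 ± 0.057 and 0.67 ± 0.064. Akr1b8, an aldo-keto reductase, rose by 0.71 ± 0.051, the adaptor Shd by 0.71 ± 0.1 and the glypican Gpc2 by 0.69 ± 0.11. Zfp558 and Zfp811, zinc finger proteins, rose by 0.81 ± 0.11 and 0.67 ± 0.12, Zfp558 with all 12 control arrays under the filter level. Limma adjusted p-values of these 10 genes ran from 0.00158 for Akr1b8 to 0.0148 for Zfp811, which was not called without Control 2 or 3 (0.0567 and 0.0573).

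The 30 genes described so far as the largest in each direction, Nnat and C1qtnf3 included, were chosen for arrays that lay apart in every region. Larger even changes whose arrays overlapped in a region, such as those of Snorc, Meltf, Unc5d and Msx2, are therefore not among them, and the counts that follow describe the chosen genes only. Of the 30, 28 were called whichever genotype and number was left out, 30 with the replicate block and 16 with the Xist covariate. The direction was always the same, and 14 had all 12 mutant arrays on one side of all 12 control arrays. Zfp558 is among the 30, the 28 and the 14, though it passed the filter only through its mutant arrays. Its place in these counts therefore adds no support.

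Of 17 palate factors 1 rose evenly, Tbx3, beside 3.18% of all genes tested, and Msx2 was the even riser of the bone and BMP response lists. Msx2, a homeobox factor of the calvaria and a BMP response gene, averaged 9.27, 9.67 and 9.34 in mutants against 8.62, 8.59 and 8.66 in controls (0.81 ± 0.11, limma adjusted p = 0.00704). Tbx3 averaged 10.28, 10.4 and 10.46 in mutants against 10, 9.65 and 9.58 in controls, and its 4 regional changes of 0.69, 0.57, 0.67 and 0.63 were nearly equal, though no region alone passed. Its mean change of 0.64 ± 0.11 (0.0154) did not pass without Control 2 or 3 (0.0585 and 0.0555). Of the 17 palate factors 7 were called higher in all, beside 7.88% of all genes tested, and 4 to 8 in the leave-outs. Their median was 0.39, and Osr1, Osr2, Tbx2, Shox2, Barx1 and Alx4 rose unevenly. The netrin receptor Unc5d rose evenly by 1.14 ± 0.18 (0.012; 0.0501 without Control 3), with averages of 8.92, 8.55 and 9.15 in mutants against 8.04, 7.55 and 7.6 in controls.

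The skeletal tissue lists fell, though few of their genes met the bound for an even change. Their counts are to be read beside 7.28% of all genes tested called lower and 0.667% evenly lower. Of 19 cartilage matrix genes 18 were called lower, with a median change of -1.96, and 3 of them evenly: C1qtnf3, Chad and Snorc, a proteoglycan of cartilage (-2.7 ± 0.21, limma adjusted p = 0.00172). The list's medians were -2.34 and -1.56 at the distal and proximal ends of the mandible and -1.43 and -2.97 at those of the maxilla. The mean level of its members ran from 7.45 to 10.28 over the mutant arrays and from 8.99 to 11.69 over the control arrays. Col11a2 (-2.45 ± 0.11), Comp (-3.01 ± 0.19), Epyc (-2.83 ± 0.22) and aggrecan, Acan (-2.23 ± 0.24), fell in the mean with one sign in all 4 regions and ratios of 0.404, 0.452, 0.407 and 0.48, and were called in 3, 3, 3 and 2 regions. Leaving out one genotype and number at a time left 14 to 18 of the list called lower, and the Xist covariate 10. With 8 mutant arrays of Comp and 5 of Epyc under the filter level, their falls are lower limits in part of the regions. The moderated F for a difference between regions, described below, passed for 1 of the 19 genes, beside 11.2% of all genes tested. A low ratio here is thus not by itself a regional difference. In Comp, control distal maxilla 3 (6.08, others 8.05 and 9.42) and mutant proximal mandible 3 (8.57, others 6.06 and 6.3) stood apart.

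Bone genes were called lower in 10 of 13 and higher in 1, Msx2, with a median of -0.84 and no even faller. Tendon genes were called lower in 8 of 12 (median -0.83), of which Fmod fell evenly, and osteoclast genes in 8 of 9 (median -1.02), none of them evenly. For these 3 lists the distal maxilla gave medians of -0.21, -0.4 and -0.36, and the proximal mandible -1.5, -1.31 and -1.78. The moderated F between regions passed for 9 bone, 5 tendon and 4 osteoclast genes, beside 11.2% of all genes tested. The bone count depended on single replicate numbers: it was 4, 6 and 11 lower without Mutant 1, 2 and 3, and 3, 4 and 2 without Control 1, 2 and 3. The tendon count was 5 without Control 1 or 3, 6 without Mutant 1, Mutant 2 or Control 2, and 11 without Mutant 3, and the osteoclast count 6 to 8. With the Xist covariate limma called 3 tendon and 4 osteoclast genes lower, and its adjusted p was above 0.05 for each of the 13 bone genes, of which 11 were lower and 1 higher at an unadjusted p under 0.05.

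Markers of other cell types that the tissue can hold were set beside these. Of all genes tested 7.88% were called higher and 7.28% lower in the mean. A count near these shares, such as 1 of 16 or 1 of 8, is no result about its list. Macrophage genes had 4 of 14 lower, but 7 without Mutant 3 and at most 1 in any other leave-out, with a median of -0.25, and the mean level of the list ran from 7.7 to 9.21 in mutant arrays and from 8.57 to 9.2 in control arrays. Muscle genes had 3 of 25 lower in the mean, but 12 without Mutant 3 and 1 or 2 in any other leave-out, with medians of -2.01, -0.55, 0.05 and 0.28 by region, and levels of 6.85 to 10.64 in mutant and 7.06 to 11.46 in control arrays; 1 of the 25 had a mean under the filter level. Endothelial genes had 3 of 12 lower (Kdr, Cldn5 and Erg; 1 without Mutant 1, Control 1 or Control 2), with a median of -0.03 and regional medians of -0.1, -0.21, 0.18 and 0.09. Epithelial genes had 1 of 16 higher (Grhl3), with a median of 0.31 and regional medians of 0.36, 0.84, -0.39 and 0.31. Schwann and glial genes had 1 of 8 higher (Foxd3) and 1 lower (S100b), with a median of 0.17. Neuron genes had a median of 0.06 and regional medians of 0.06, 0.47, 0.39 and -0.67, and erythroid genes one of 0.24, with 0.17 to 0.26 by region. No gene of these 7 lists changed evenly, beside 3.85% of all genes tested, and their part in the even changes was not tested. The other lists had medians of 0.25 (Wnt response, 6 of 13 higher and 1 lower), 0.23 (BMP response, 4 of 12 higher), -0.03 (proliferation), -0.26 (chondrocyte regulators, 2 of 9 lower), 0.15 (mandible patterning, 3 of 14 higher), 0.06 (hedgehog response, and likewise hypoxia and glycolysis), 0.09 (Hox), -0.16 (immediate early genes), 0.04 (axon guidance, 5 of 28 higher and 2 lower) and 0.0 (Notch signalling).

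**Figure D5:**
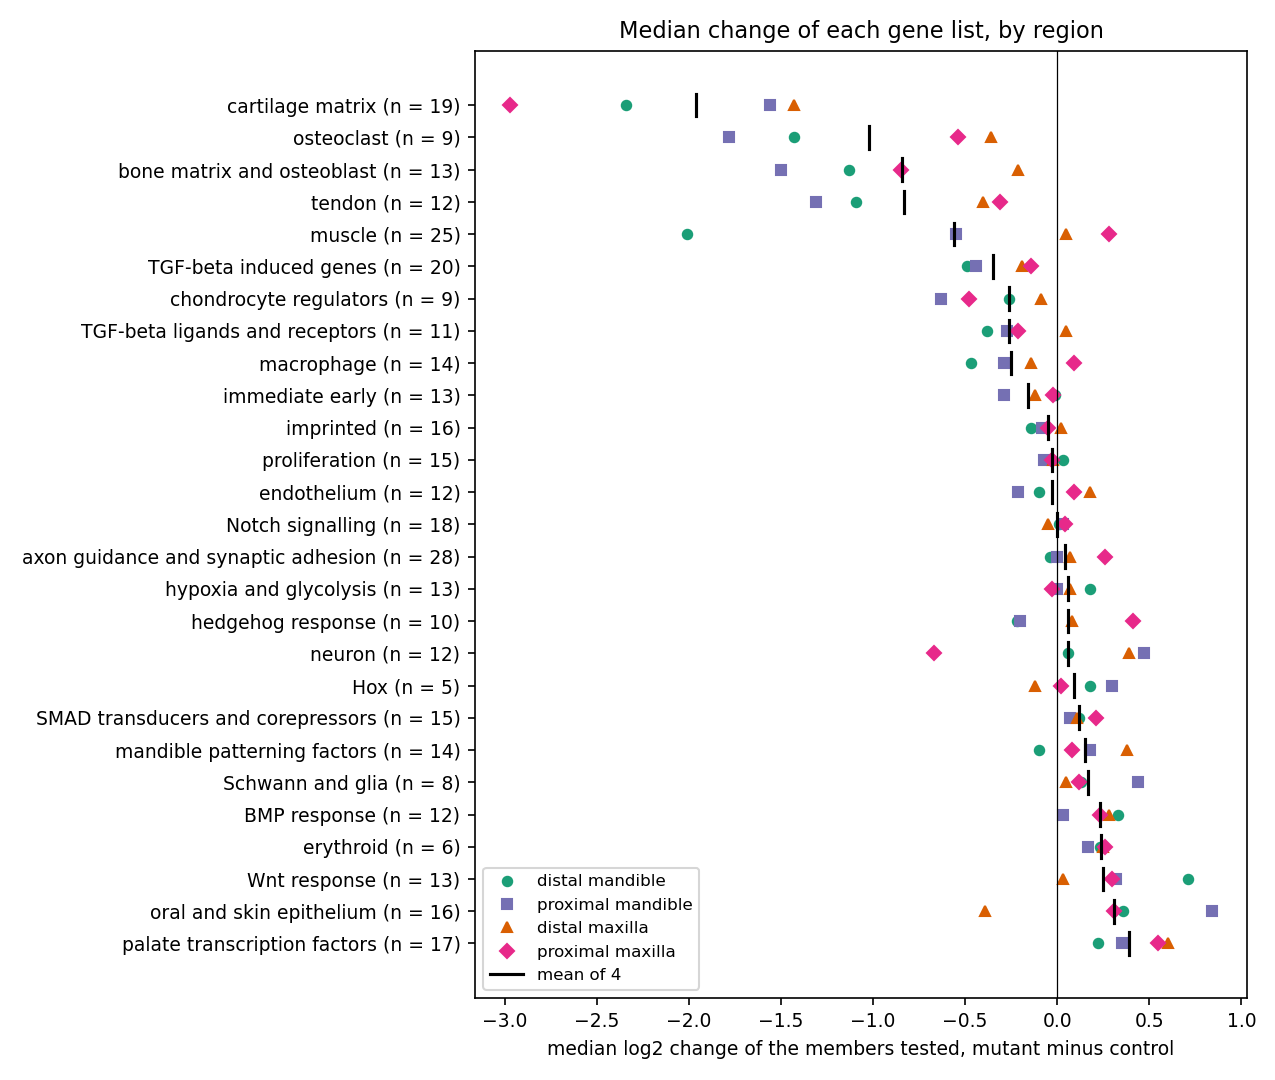
Median log2 change, mutant minus control, of the members tested of each gene list, in each region (coloured symbols) and in the mean of the 4 regions (black bar). Cartilage matrix genes have all 4 regional medians at or below -1.43, while the muscle medians run from -2.01 in the distal mandible to 0.28 in the proximal maxilla.

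Large changes outside the even genes show what the rule left out. Dmp1, a matrix protein of mineralising bone, had the largest mean change of all, -3.96 ± 0.81 (limma adjusted p = 0.0231), made of -6.34, -4.74, -1.33 and -3.43. Its averages of 5.62, 6.06 and 8.86 in mutants against 10.79, 10.26 and 11.36 in controls did not overlap, and mutant proximal mandible 3 reached 11.48. Among the 6 leave-outs the call held only without Mutant 3. As 7 of the 12 mutant arrays of Dmp1 were under the filter level, its size is a lower limit in part of the regions. Cxcl14, a chemokine, rose by 2.08 ± 0.22 (0.00421) with 2.27, 2.85 and 3.35 in 3 regions but -0.18 in the distal maxilla. The homeobox gene Hoxd1 (1.99 ± 0.39), the synaptic organiser Cbln4 (1.49 ± 0.18), the Notch target Hey2 (1.37 ± 0.18) and the vasopressin receptor Avpr1a (1.37 ± 0.061) rose with ratios of 0.13, 0.0184, 0.082 and 0.256. Under the filter level lay 11 of the 12 control arrays of Hoxd1 and 9 of those of Cbln4, so their sizes and ratios rest on background signals. Hoxd1 was not called without Control 1, 2 or 3 (limma adjusted p = 0.0571, 0.072 and 0.0785).

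The difference between regions was tested for each gene by a moderated F in limma, with genotype and number as a random block. It passed for 1564 genes (11.2%), for 630 of the 1577 called genes that had not changed evenly, and for 2 of the 537 even ones. Since evenness and this F rest on the same regional changes, the last count is a description. One of the even genes with a difference was Ltbp3 (-0.63, -0.62, -0.32 and -0.36, adjusted p of the F = 0.0237).

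Just inside the bound, among called genes of one sign with a mean change of at least 1 log2 unit, were Meltf (ratio 0.508) and Thbs2 (0.514). Just outside were Insyn2b (0.497) and Col11a1 (0.496). Among the even genes 20 had a group mean under the filter level, 10 in each direction, which left 434 higher and 83 lower with measured levels in all 8 groups.

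Other probe sets of the same genes gave a reading that the rule did not use. The 537 genes had 479 further probe sets above the filter level, and 442 of them changed in the same direction as the chosen one (92.3%), beside 79.8% of the 11191 of all genes tested. Above the filter level, all 5 others of Fmod, all 3 others each of Ccn1, Ltbp3, Atat1 and Tbx3, and both others each of Thbs2, Pmepa1 and Hmga2 agreed in direction. Counting also those under it, 3 of the 4 others of Tbx3, 1 of the 3 of Syne2 and 0 of the 1 of Thsd4 agreed. Probe sets of a gene share the RNA of the array, and genes that did not change have no fixed direction, so the 2 shares are given as a description.

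Over the 8 group means, the genes with the pattern most like that of Nnat were Nelfcd, Dynlt1f and Phc1 (Pearson r = 0.989, 0.98 and 0.979). For Sned1 they were Abtb1, Ttc8 and Rnf115 (0.986, 0.986 and 0.984), for C1qtnf3 Arap1, Wrnip1 and Trim47 (0.984, 0.977 and 0.976), and for Matn3 Ninj2, Snorc and Acan (0.991, 0.982 and 0.982). The likeness is one of shape and not of size: Nelfcd changed by 0.25 ± 0.047 and Arap1 by -0.23 ± 0.13 (limma adjusted p = 0.0182 and 0.269).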

How the data were processed

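Total RNA of 24 jaw samples, isolated with an RNeasy kit, was labelled as biotin cRNA from 5 µg and hybridised to single-colour mouse arrays, per the labels' protocols. The authors deposited log2 signals after RMA normalization, per the submitters' processing notes, which give no version. The log base was read from their range of 3.29 to 14.86. Scanner values, detection calls and a genome build were not used here.

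Of 45101 probe sets, 34945 had 1 symbol, 932 several and 9160 none in the platform annotation, and 64 were controls. The probe set with the highest mean stood for each of 18193 genes. The 13942 genes that exceeded an array's 40th percentile in 3 arrays or more were tested with limma 3.58.1 in R 4.3.3 (eBayes with trend, Benjamini-Hochberg adjustment over all genes tested, two-sided, called at an adjusted p under 0.05). The mean effect was fitted to 3 mutant and 3 control averages over the 4 regions. Each region was tested in a fit of 8 group means to all 24 arrays, and the difference between regions by a moderated F with genotype and number as a random block (consensus correlation 0.231). The scripts were tested on simulated data. Tables used Python 3.11.15 with pandas 2.3.3 and numpy 2.4.6, and plots matplotlib 3.10.9.

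With 3 arrays per group, their number limits the precision, and the p-values reflect only how far these samples spread, which may be technical. The labels number the arrays 1 to 3. Deviations of same-numbered mutant and control averages correlated across genes at r = 0.163, 0.129 and 0.361. Values for different numbers are not given here to set beside them. The replicate block takes the numbers to pair the samples, which neither the labels nor these correlations establish. The main fit of the mean effect left the samples unpaired. Arrays of one genotype and number correlated between regions at 0.004 to 0.74.

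Named are 4 marker genes, the 15 even genes with the largest change in each direction whose arrays lay apart in every region, up to 3 even members of each list by moderated statistic, Tgfbr1, Tgfbr2, Tgfb1, Tgfb2 and Tgfb3, the 5 uneven genes with the largest change in each direction, 2 genes on either side of the bound, and the 3 genes most like each marker. Unnamed transcripts and sex-linked markers were passed over. Other list members appear as examples chosen after their values were seen. The members and the 27 gene lists were chosen with earlier results of these data known.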

Additional observations from a re-analysis of the deposited data

Results flagged for a closer look

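For 9 of the named genes the genotype effect differed between the 4 regions by the moderated F in limma. The adjusted p of that F was 0.000801 for Tgfb3, 0.0123 for Tgfb2, 0.0384 for Tgfb1 and 0.0237 for Ltbp3, the last of these also an even faller by the bound on its ratio. Tgfb3 and Tgfb1 were lower in mutants in both mandible regions and near 0 in the distal maxilla, at 0.08 each. For the uneven risers it was 0.000595 for Hey2, 0.000996 for Cxcl14, 0.00305 for Avpr1a, 0.00824 for Cbln4 and 0.0152 for Hoxd1. Each of these 5 had a smaller rise in the distal maxilla than in the proximal maxilla, and Cxcl14 stood at -0.18 in the distal maxilla. Of the 12 control arrays, 11 of Hoxd1 and 9 of Cbln4 were under the filter level.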

How the results depend on the processing

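The direction of the 67 named genes was the same under every alternative run. Over 16 alternatives their calls were kept in 959 comparisons, lost in 87 and gained in 21. Genes called in the mean effect (2114) and evenly changed (537) numbered 3324 and 837 with the replicate block. They numbered 5655 and 1190 with 24 independent arrays, and 149 and 37 with the Xist covariate. A random block on single arrays gave 3788 and 970. The fit without the 2 maxilla arrays of Mutant 3 used that random block and gave 3715 and 948. A log2 change of at least 1 left 145 called, and a ratio of 0.33 or 0.67 gave 974 or 165 even genes. Of the 537, 530 were kept with the replicate block, 338 after quantile normalization and 85 without Control 3. Genes called in all 4 regions (118), in the distal maxilla (413) and in the proximal maxilla (1470) numbered 306, 1087 and 2397 with the replicate block, 188, 1113 and 783 without the 2 maxilla arrays, and 1, 23 and 320 with only the 6 arrays compared. The F passed 661 genes with independent arrays. Leaving out one genotype and number at a time gave 691 (without Control 3) to 2319 genes in the mean, 131 to 518 even genes, 6 to 220 called in all regions, and 472 to 1632 by the F. By region it gave 1212 to 2346 in the distal mandible, 1705 to 3042 in the proximal mandible, 18 (without Mutant 1) to 1104 in the distal maxilla and 545 to 1386 in the proximal maxilla. The causes were not tested, beyond the fewer arrays behind each leave-out. After quantile normalization 46.4% of called genes were higher, against 52.0%. The replicate block changed 3 calls of named genes, adding Tgfbr2, Tgfb1 and Rnf115 (adjusted p = 0.0465). Signals near the filter level limit the size of falls such as those of C1qtnf3, Chad and Ltbp2.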

Other observations

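Zinc finger genes with a Zfp symbol, a group chosen after its values were seen, leaned to small rises. Of 315 tested, 83 were called higher in mutants (26.3%, beside 7.88% of all genes tested) and 4 lower, with a median change of 0.183 beside 0.022. Evenly changed were 54 higher and 1 lower. After quantile normalization 76 were called higher, with a median of 0.167 beside 0.015 over all genes. Leaving out one genotype and number at a time gave 21 to 85 called higher, the replicate block 136 and the Xist covariate 1.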
